A study of Rattus norvegicus with 15 samples.

Results

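Fatty acid oxidation was followed through 30 genes in epididymal fat, the visceral depot beside the testis, of diet-induced obese and lean rats. The genes were chosen by name: 22 act in mitochondria, 6 in peroxisomes and 2 in the cytosol or nucleus (the thioesterase Acot1 and the nuclear receptor Ppara). Of the 30, 29 had a probe set, a group of array probes against 1 transcript, whose annotation names exactly 1 gene, among 14217 genes named in this way on the array. Acaa1a, a peroxisomal thiolase, was named only by a probe set that names several genes and has no value here. Where a gene had several probe sets the brightest was used, and 26 of the 29 lay above the filter on low signals, 22 of 22 mitochondrial and 4 of 5 peroxisomal ones.

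The 15 rats were male Long-Evans rats of a private colony, shipped at 14 weeks of age, housed singly and killed at 26 weeks in the fed state, late in the light phase. The 7 obese rats had eaten a diet high in fat and sucrose (TD95217) from weaning on, and the 8 lean rats Purina chow 5008. Diet and obesity went together, so the comparison cannot separate them. Total RNA of each rat went onto 1 Affymetrix RAE230_2 array, and the values are MAS5 signals, the brightness that Affymetrix software gives to a probe set.

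Long-chain fatty acids enter mitochondria as carnitine esters and are then shortened by repeated rounds of dehydrogenation, hydration, a further oxidation and thiolysis, whose electrons pass through the electron transfer flavoprotein to the respiratory chain. Peroxisomes shorten very long and branched chains with enzymes of their own. White fat cells mainly store and release fatty acids and oxidise less of them than muscle or liver, and the nuclear receptors of the PPAR family switch on many genes of both routes.

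The arrays titled C1 (obese rat 1) and A7 (lean rat 7) were nearly identical although labelled as different groups. Their log2 signals correlated with r = 0.986 over the probe sets above the filter, and the next closest of the 15 arrays, A2 and A7, with r = 0.960. Fold changes of the members are therefore given with all 15 arrays and with the 13 that remain without this pair, 6 obese and 7 lean, and other values name the set they come from. Probe sets were compared with limma, a linear model fitted across all 18625 probe sets above the filter, on the scale log2(signal + 79.9), and p-values were adjusted over all of them by Benjamini-Hochberg with a threshold of 0.05. Precision is limited by the number of arrays. In pieces of whole tissue, fewer cells of a type and less RNA per cell cannot be told apart.

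Signals of the mitochondrial members were mostly somewhat higher in obese than in lean fat, and 1 of them, the thiolase Acaa2, passed the threshold when the pair was left out. With all 15 arrays limma passed 0 of the 26 members tested, as it passed 0% of all probe sets, while 10 members had an unadjusted p under 0.05 in the higher direction and 1, Acot2, in the lower one. Over all probe sets 6.74% had such a p in the higher and 8.82% in the lower direction. With 13 arrays 1 of 26 members passed, against 1.01% of all probe sets, and the same counts of 10 and 1 stood against 7.59% and 10.2%. Without obese rat 1 alone, 3 members passed: Cpt1a (adjusted p = 0.0322), Cpt2 (adjusted p = 0.0490) and Acaa2 (adjusted p = 0.0281), all from limma, against 1.32% of all probe sets in that fit.

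The log2 fold change, obese minus lean, was above 0 in 18 of 22 mitochondrial members in both sets of arrays, with a median of 0.15 with 15 arrays and 0.19 with 13. It was above 0 in 3 of 4 peroxisomal members, with medians of 0.08 and 0.07. Among all probe sets 42.5% and 42.2% were above 0, and the median was -0.04 in both sets. Centring each array on its median moved that overall median to 0.06 and 0.07, and the mitochondrial medians, on the same centred scale, became 0.26 and 0.31. Under that centring Hadh, Eci1 and Abcd3, which are below 0 in both sets as given here, came out above 0. Hadh and Eci1 did so also with a Gapdh ratio as a covariate, and Abcd3 also when single rats were left out.

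**Figure D1:**
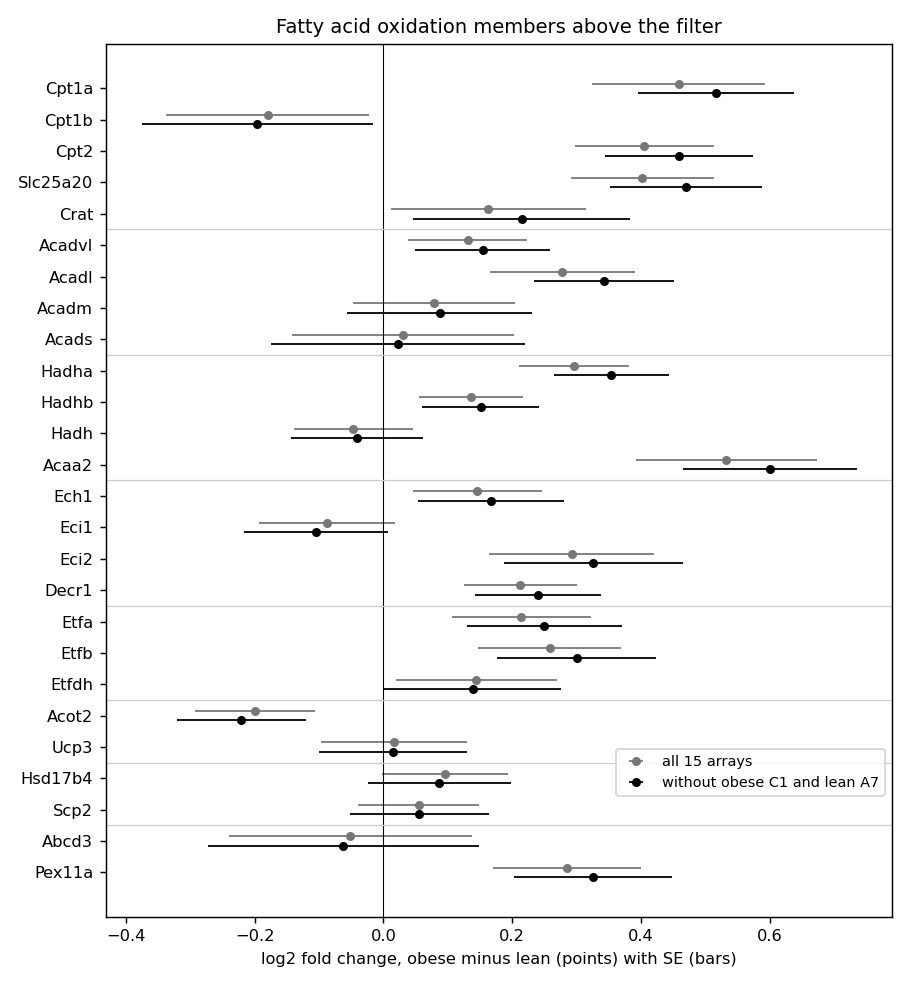
Log2 fold change, obese minus lean, of the 26 members above the filter (points) with its standard error from limma (bars), with all 15 arrays in grey and without obese C1 and lean A7 in black; thin lines separate the roles, from the carnitine shuttle at the top to the peroxisomal membrane at the bottom. Acaa2, Cpt1a, Slc25a20 and Cpt2 lie furthest to the right, and Acot2 and Cpt1b furthest to the left.

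In the carnitine shuttle 4 of 5 members had a fold change above 0, 3 of them with an unadjusted p under 0.05 and none past the threshold, and its median log2 fold change was 0.40 with 15 arrays and 0.46 with 13. Cpt1a is a form of the carnitine palmitoyltransferase of the outer membrane, whose step sets the rate of entry. Its signals were 2298 to 4357 in obese rats (median 3679) and 2066 to 3358 in lean rats (median 2482). Obese rats 1 and 3 lay inside the lean range, and 5 of 7 obese rats lay above all 8 lean rats. Its log2 fold change was 0.46 ± 0.13 (SE; limma adjusted p = 0.142) with 15 arrays and 0.52 ± 0.12 (SE; limma adjusted p = 0.0572) with 13. With 13 arrays, leaving out obese rat 3 or lean rat 1 as well brought it past the threshold, at limma adjusted p = 0.0302 and 0.0334. A second, dimmer Cpt1a probe set above the filter had 0.12 with 15 arrays and 0.13 with 13, and the mean over both gave 0.29 and 0.32 (limma adjusted p = 0.181 and 0.114).

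Cpt2, which turns acylcarnitines back into acyl-CoA inside the mitochondrion, ranged from 2076 to 3221 in obese rats (median 2646) and from 1627 to 2344 in lean rats (median 1913). All 7 obese rats lay above the lean median and 4 above every lean rat, so the groups overlapped in part. The carnitine-acylcarnitine carrier Slc25a20 ranged from 1198 to 2047 in obese rats (median 1727) and from 1094 to 1395 in lean rats (median 1256). Obese rats 1 and 5 lay inside the lean range, and lean rat 7 was the highest of the lean rats. The log2 fold changes with 13 arrays were 0.46 ± 0.12 for Cpt2 and 0.47 ± 0.12 for Slc25a20 (SE; limma adjusted p = 0.0703 and 0.0696), and with 15 arrays 0.41 and 0.40 (limma adjusted p = 0.116 and 0.123). Without obese rat 5 as well, Slc25a20 had 0.57 with a limma adjusted p of 0.0265.

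Cpt1b, another carnitine palmitoyltransferase of the same step as Cpt1a, did not share this direction. Its signal was 760 to 1791 in obese rats (median 1277) and 1075 to 1826 in lean rats (median 1383), with 3 obese rats below all lean rats and 3 above the lean median. The log2 fold change was -0.18 ± 0.16 (SE; limma adjusted p = 0.608) with 15 arrays and -0.20 ± 0.18 (SE; limma adjusted p = 0.605) with 13. Within a rat, the log2 signal of Cpt1a minus that of Cpt1b averaged 0.79 ± 0.31 in the 7 lean (SD, n = 7) and 1.50 ± 0.39 in the 6 obese rats (SD, n = 6) without the pair. The ranges, 0.37 to 1.23 and 1.13 to 2.00, overlapped, and with all rats the means were 0.76 and 1.40; this contrast was chosen after its values were seen and was not tested. Crat, which handles short-chain acyl groups, had 0.16 ± 0.15 with 15 arrays and 0.21 ± 0.17 with 13 (SE; limma adjusted p = 0.635 and 0.536), and its lean signals, 1849 to 4079, spread more widely than its obese ones, 2966 to 4209.

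The 250 bases before the start sites of the 3 shuttle genes with the highest fold changes are shown so that their make-up can be set beside their values. The sequences are from RefSeq, build GRCr8, at chr1:209995910-209996159 on the plus strand (Cpt1a), chr5:127910819-127911068 on the minus strand (Cpt2) and chr8:118243323-118243572 on the plus strand (Slc25a20). Capitals mark the GC box GGGCGG on either strand.
Cpt1a: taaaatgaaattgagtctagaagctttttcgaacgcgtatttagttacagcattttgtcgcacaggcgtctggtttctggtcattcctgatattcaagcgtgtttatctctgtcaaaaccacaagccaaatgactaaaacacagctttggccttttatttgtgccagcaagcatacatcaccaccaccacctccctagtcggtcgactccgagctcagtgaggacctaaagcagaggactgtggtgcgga
Cpt2: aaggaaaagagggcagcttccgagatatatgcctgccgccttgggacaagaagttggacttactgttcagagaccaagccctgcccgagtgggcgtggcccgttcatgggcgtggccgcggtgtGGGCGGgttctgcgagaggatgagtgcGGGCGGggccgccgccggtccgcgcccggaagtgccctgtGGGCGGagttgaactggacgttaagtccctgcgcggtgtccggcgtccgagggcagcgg
Slc25a20: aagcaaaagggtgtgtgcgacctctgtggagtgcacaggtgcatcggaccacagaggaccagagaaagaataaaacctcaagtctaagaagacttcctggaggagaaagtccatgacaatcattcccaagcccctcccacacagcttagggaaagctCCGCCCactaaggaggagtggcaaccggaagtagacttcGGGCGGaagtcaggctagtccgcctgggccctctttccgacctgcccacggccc
Cpt1a holds 0 GC boxes, Cpt2 3 and Slc25a20 2, so the 3 windows differ in make-up.

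Over the 25 members with a RefSeq window of this length, 18 (72%) held the letters GGGCGG on either strand, against 30.5% of all 33469 windows. The PPAR response element AGGTCANAGGTCA was in 0 of the 25 and in 0.0508% of all windows, and the looser AGGNCANAGGNCA in 0 and 0.368%. TCAAGGTCA, an element of the estrogen-related receptors, was in 0 and 0.388%. AGGTCA, which lies within the first and the third of these, was in 4 of the 25 (16%; Ucp3, Eci1, Acadvl and Hsd17b4) and in 14.1% of all windows. These are matches of letters in 250 bases only. The 5 members without a window, Acaa2, Acadl, Cpt1b, Decr1 and Ech1, were not scanned. The counts therefore leave out Acaa2, the only member past the threshold when the pair was left out. The 25 scanned include Ppara and Ehhadh, which lay below the filter, and Acaa1a, which has no value here.

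Of the acyl-CoA dehydrogenases, which take the first step of each round and are named for the chain lengths they prefer, 1 of 4 had an unadjusted p under 0.05. Acadl, the long-chain enzyme, had signals of 6647 to 11725 in obese rats (median 9416) and 6463 to 9175 in lean rats (median 7463). Obese rat 1 was the lowest obese rat, and 5 of 7 obese rats lay above all lean rats. Its log2 fold change was 0.28 ± 0.11 (SE; limma adjusted p = 0.251) with 15 arrays and 0.34 ± 0.11 (SE; limma adjusted p = 0.124) with 13. The very long-chain enzyme Acadvl had 0.15, the medium-chain enzyme Acadm 0.09 and the short-chain enzyme Acads 0.02 with 13 arrays, and 0.13, 0.08 and 0.03 with 15, each with overlapping groups. Acads had the largest standard error of the 4, 0.17 with 15 arrays and 0.20 with 13. Its signals spanned 2140 to 4149 in obese and 1878 to 3644 in lean rats, and its fold change turned below 0 without obese rat 3, obese rat 5, lean rat 1 or lean rat 8, each left out singly, with values down to -0.05 with 15 arrays and -0.08 with 13.

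The later steps of the round held the member with the highest fold change. Acaa2, the mitochondrial thiolase that splits off acetyl-CoA, had signals of 2764 to 6187 in obese rats (median 4151) and 2346 to 3375 in lean rats (median 2681). Obese rat 6 was the highest and obese rat 1 the lowest obese rat. Without the pair all 6 obese rats, at 3563 or more, lay above all 7 lean rats.

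Acaa2 rose in obese fat by 0.60 ± 0.13 on the log2 scale (SE; limma adjusted p = 0.0473), 1.52-fold, with 13 arrays, and had 0.53 ± 0.14 (SE; limma adjusted p = 0.112) with 15. Leaving out 1 more of the 13 rats took the limma adjusted p to between 0.0519 and 0.101 for 12 of them and to 0.0430 without obese rat 2, with log2 fold changes of 0.50 to 0.66. The call was also lost with no filter on low signals (limma adjusted p = 0.105) and with a Gapdh ratio that follows RNA quality as a covariate (0.181). A dimmer Acaa2 probe set, below the filter, had a fold change of the other sign, -0.17 with 15 arrays and -0.15 with 13, and the mean over both gave 0.18 and 0.22 (limma adjusted p = 0.575 and 0.454).

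**Figure D2:**
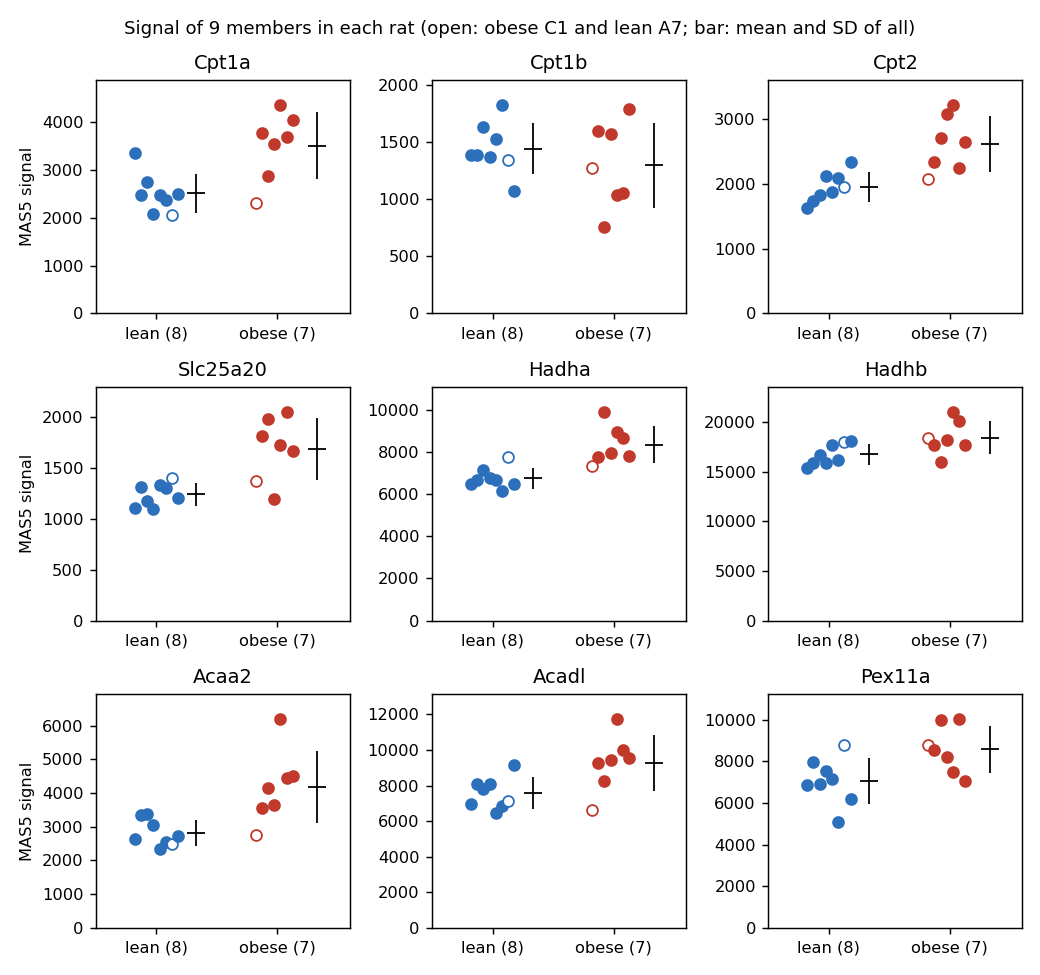
MAS5 signal (vertical axes, from 0) of 9 members in each of 8 lean (blue) and 7 obese (red) rats; open points are obese C1 and lean A7, and the black marks are the mean and SD over all rats of the group. The filled red points of Acaa2 and Hadha all lie above the filled blue ones, those of Cpt1a, Cpt2 and Slc25a20 overlap them in part, and those of Cpt1b spread from below to inside the lean range.

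Hadha and Hadhb encode the alpha and beta subunits of the mitochondrial trifunctional protein, which carries out the last 3 reactions of a round on long chains. Hadha ranged from 7339 to 9885 in obese rats (median 7959) and from 6126 to 7768 in lean rats (median 6652). The highest lean rat was rat 7, and without the pair the groups did not overlap. Acaa2 and Hadha were the 2 members whose obese signals all lay above the lean ones with 13 arrays, against 0.918% of all probe sets, and 0 members lay wholly below, against 0.532%. With 15 arrays 0 members were apart either way, against 0.107% above and 0.0859% below. The log2 fold change was 0.30 ± 0.08 (SE; limma adjusted p = 0.134) with 15 arrays and 0.35 ± 0.09 (SE; limma adjusted p = 0.0696) with 13. Hadha had 2 dimmer probe sets, at -0.24 (above the filter) and 0.20 (below it) with 13 arrays and -0.21 and 0.21 with 15, and the mean over its 3 probe sets gave 0.10 in both sets (limma adjusted p = 0.723 and 0.718).

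Hadhb ranged from 16001 to 21013 in obese rats (median 18160) and from 15425 to 18112 in lean rats (median 16453), with 4 of 7 obese rats above all lean rats. Its log2 fold change was 0.14 ± 0.08 (SE; limma adjusted p = 0.427) with 15 arrays and 0.15 ± 0.09 (SE; limma adjusted p = 0.406) with 13. Obese rat 3 was the highest rat for Hadha and the lowest obese rat for Hadhb. Within a rat, the log2 signal of Hadha minus that of Hadhb was -1.23 to -0.69 in the 6 obese and -1.47 to -1.22 in the 7 lean rats of the smaller set, and -1.32 to -0.69 and -1.47 to -1.21 with all rats, a contrast chosen after its values were seen and not tested. Hadh, the dehydrogenase for shorter chains, had -0.05 ± 0.09 with 15 arrays and -0.04 ± 0.10 with 13 (SE; limma adjusted p = 0.840 and 0.868), with 2 of 7 obese rats above the lean median. The mean over its probe sets gave -0.24 and -0.25.

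Because both subunits are needed for 1 complex, the promoter windows of Hadha and Hadhb are shown together. In RefSeq, build GRCr8, they face away from each other on chromosome 6 with start sites 301 bases apart, Hadha at chr6:31907551-31907800 on the plus strand and Hadhb at chr6:31907501-31907750 on the minus strand. The windows share 200 bases, each as the reverse complement of the other, and capitals mark GGGCGG on either strand.
Hadha: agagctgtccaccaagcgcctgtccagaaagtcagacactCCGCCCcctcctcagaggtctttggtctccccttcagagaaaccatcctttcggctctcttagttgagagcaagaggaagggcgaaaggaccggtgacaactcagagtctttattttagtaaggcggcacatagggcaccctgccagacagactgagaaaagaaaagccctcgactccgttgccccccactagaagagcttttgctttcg
Hadhb: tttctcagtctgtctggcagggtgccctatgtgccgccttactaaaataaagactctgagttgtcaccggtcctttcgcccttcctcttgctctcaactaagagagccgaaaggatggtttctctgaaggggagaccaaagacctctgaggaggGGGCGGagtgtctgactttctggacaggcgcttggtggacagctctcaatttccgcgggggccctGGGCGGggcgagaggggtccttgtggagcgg
The window of Hadha holds 1 GC box and that of Hadhb 2, 1 of which is the same stretch read on the other strand.

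Enzymes that prepare unsaturated fatty acids for the cycle gave 2 of 4 members with an unadjusted p under 0.05. Eci2, an enoyl-CoA isomerase found in mitochondria and peroxisomes, had signals of 3672 to 5118 in obese rats (median 4555) and 2740 to 4924 in lean rats (median 3461). All 7 obese rats lay above the lean median, though the highest lean rat exceeded 5 of them. Decr1, the mitochondrial dienoyl-CoA reductase, ranged from 18011 to 24717 in obese rats (median 19564) and from 14853 to 20090 in lean rats (median 17495), again with all obese rats above the lean median. With 13 arrays the log2 fold changes were 0.33 ± 0.14 for Eci2 and 0.24 ± 0.10 for Decr1 (SE; limma adjusted p = 0.235 and 0.216). Ech1, a dienoyl-CoA isomerase, had 0.17 ± 0.11 and the isomerase Eci1 -0.10 ± 0.11 (SE; limma adjusted p = 0.467 and 0.665). With 15 arrays Eci2 had 0.29, Decr1 0.21, Ech1 0.15 and Eci1 -0.09 (limma adjusted p = 0.258 to 0.726).

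The electron transfer flavoprotein, which accepts the electrons of the dehydrogenases, consists of the subunits Etfa and Etfb and hands them to the oxidoreductase Etfdh. Etfb ranged from 6547 to 9579 in obese rats (median 8081) and from 5206 to 8041 in lean rats (median 6651), and 4 of 7 obese rats lay above all lean rats. Etfa had a median of 14996 in obese and 12017 in lean rats, and lean rat 8, at 17415, exceeded every obese rat. With 13 arrays the log2 fold changes were 0.30 ± 0.12 for Etfb, 0.25 ± 0.12 for Etfa and 0.14 ± 0.14 for Etfdh (SE; limma adjusted p = 0.220, 0.292 and 0.636), and with 15 arrays 0.26, 0.21 and 0.14 (limma adjusted p = 0.274, 0.347 and 0.604).

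Acot2, a mitochondrial thioesterase that releases free fatty acids from acyl-CoA, was the member with the lowest fold change. Its signals were 1860 to 2307 in obese rats (median 1959) and 1988 to 2995 in lean rats (median 2381). No obese rat lay above the lean median, and 5 of 8 lean rats lay above all obese rats. The log2 fold change was -0.20 ± 0.09 (SE; limma adjusted p = 0.318) with 15 arrays and -0.22 ± 0.10 (SE; limma adjusted p = 0.264) with 13. Acot2 is a close relative of Acot1, so their probe sets may share transcripts; 2 dimmer Acot2 probe sets had -0.09 and -0.10 with 13 arrays and -0.06 each with 15. The uncoupling protein Ucp3, a mitochondrial carrier best known from muscle, had 0.02 ± 0.11 in both sets (SE; limma adjusted p = 0.959 and 0.963), and the sign turned when single rats were left out.

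Of the 4 peroxisomal members tested, Pex11a alone had an unadjusted p under 0.05. Pex11a, a membrane protein that takes part in the division of peroxisomes, had signals of 7071 to 10013 in obese rats (median 8543) and 5094 to 8788 in lean rats (median 7019). All 7 obese rats lay above the lean median, and the highest lean rat was rat 7. Its log2 fold change was 0.29 ± 0.12 (SE; limma adjusted p = 0.249) with 15 arrays and 0.33 ± 0.12 (SE; limma adjusted p = 0.184) with 13, and a second, dimmer probe set had 0.22 and 0.31.

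Hsd17b4, the bifunctional enzyme of the D route, had 0.10 ± 0.10 with 15 arrays and 0.09 ± 0.11 with 13 (SE; limma adjusted p = 0.673 and 0.721). Scp2, which carries a thiolase and a sterol carrier domain, had 0.05 ± 0.09 and 0.06 ± 0.11 (SE, limma adjusted p = 0.817 and 0.824), and turned below 0 under quantile normalization. A second, dimmer Scp2 probe set above the filter had -0.015 with 15 arrays and -0.019 with 13. Abcd3, the transporter that brings acyl-CoA into peroxisomes, had -0.05 ± 0.19 and -0.06 ± 0.21 (SE; limma adjusted p = 0.919 and 0.905). Its signals ran from 2054 to 4183 in obese and 2055 to 4711 in lean rats, and its standard error was the largest of the 4 peroxisomal members tested. Each of these 3 had overlapping groups.

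Ehhadh, the bifunctional enzyme of the L route, Acot1 and Ppara lay below the filter, where MAS5 signals are noisy, and carry no call. Ehhadh had signals of 52 to 474 in obese rats (median 324) and 47 to 344 in lean rats (median 166), with 3 of 7 obese rats above all lean rats. In the fit with no filter its log2 fold change was 0.48 ± 0.35 with 15 arrays and 0.73 ± 0.33 with 13 (SE; limma adjusted p = 0.610 and 0.354). Acot1, at 6.3 to 208 and 20.2 to 319, and Ppara, at 40.7 to 105 and 38.9 to 151, showed no separation of the groups, with log2 fold changes of 0.03 and -0.10 in the same fit of 13 arrays (limma adjusted p = 0.980 and 0.825) and of -0.04 and -0.07 in that of 15 (limma adjusted p = 0.970 and 0.871).

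The 22 mitochondrial members were also summarised in each rat as the mean of their log2 deviations from the mean over all 15 rats. Obese rats lay at -0.02 to 0.15 (median 0.11) and lean rats at -0.19 to 0.003 (median -0.07). Obese rat 1, at -0.02, was the only obese rat inside the lean range. The 4 peroxisomal members tested gave -0.08 to 0.21 in obese (median 0.01) and -0.18 to 0.11 in lean rats (median -0.03), with wide overlap. No test was made of these means, since the members were chosen with results of these data known.

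**Figure D3:**
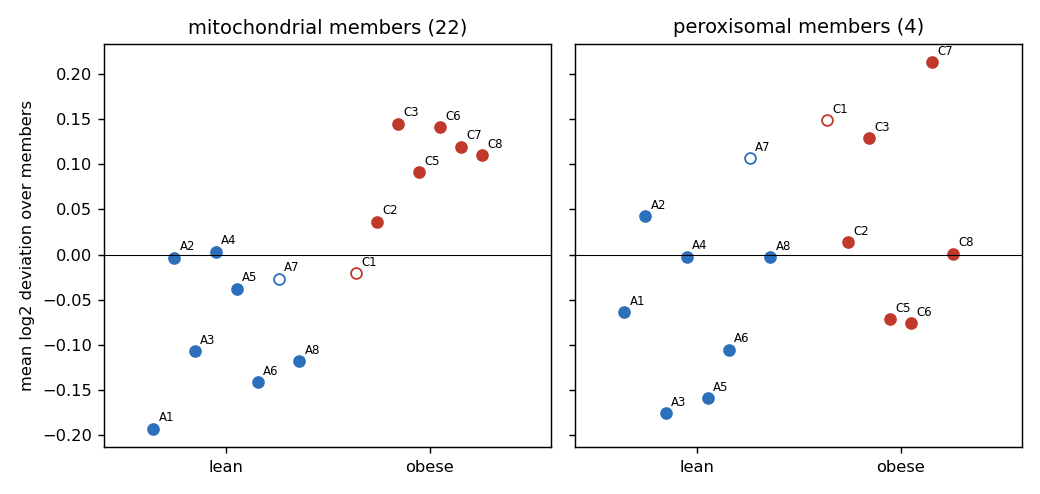
Mean log2 deviation of the 22 mitochondrial (left) and the 4 tested peroxisomal members (right) from the mean over all 15 rats, 1 point per rat, with lean rats in blue and obese rats in red; open points are obese C1 and lean A7. On the left every filled red point lies above every filled blue one, and on the right the groups overlap.

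The obese rats did not share 1 profile. Obese rat 3 was the highest of all 15 rats in 6 mitochondrial members, among them Hadha, Decr1, Acadm and Etfb, yet had the lowest Cpt1b. Obese rat 6 was the highest in 5, among them Cpt1a, Cpt2, Acadl and Acaa2. Lean rat 1 was the lowest of all rats in 7 members, Cpt2, Ech1 and Etfb among them, while its Cpt1a, at 3358, was the highest lean signal. Lean rat 6 was the lowest in 5, and lean rat 3 had the lowest Crat signal, 1849.

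**Figure D4:**
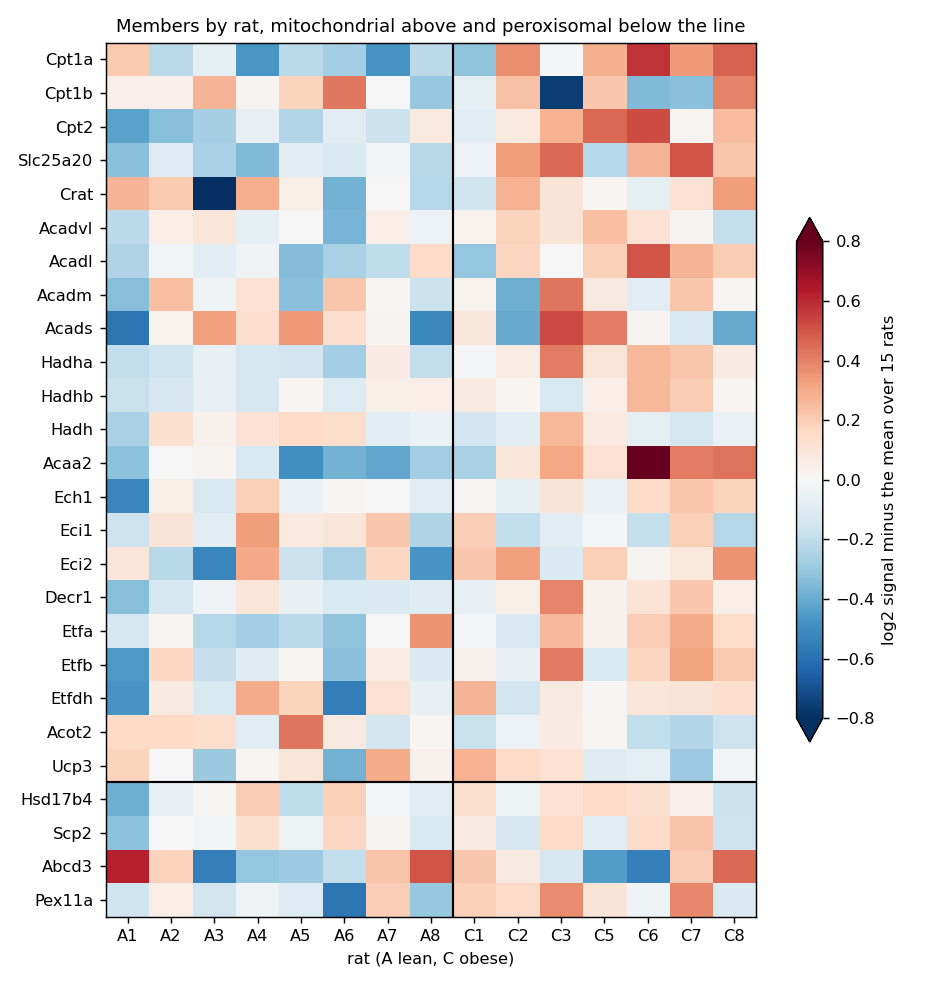
Log2 signal of each of the 26 members minus its mean over the 15 rats (colour, red above and blue below, capped at 0.8 either way), with rats in columns (A lean, C obese) and members in rows. Acaa2, Cpt1a, Cpt2, Slc25a20 and Hadha are mostly blue on the lean side and red on the obese side, and obese C1 stays pale or blue in these rows.

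Beyond the members, 114 other genes of the pathway were listed, of which 88 lay above the filter. With 13 arrays 4 of them passed, all higher in obese fat, against 0.725% of all probe sets in that direction. With 15 arrays 0 passed limma. An unadjusted p under 0.05 was then found in 13 higher and 3 lower genes of the 88, against 6.74% and 8.82% of all probe sets. Among the genes answering to PPAR receptors 3 of 15 passed. Fabp3, a carrier of fatty acids inside the cell, rose by 2.38 ± 0.41 (SE; limma adjusted p = 0.0181), Plin2, a coat protein of lipid droplets, by 1.18 ± 0.21 and Pdk4, the kinase that holds back glucose oxidation by inhibiting pyruvate dehydrogenase, by 1.03 ± 0.18 (both limma adjusted p = 0.0203). The median of this list was 0.25 with 13 arrays and 0.23 with 15.

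Nudt7, a peroxisomal enzyme that cleaves coenzyme A although it was written into the list of other mitochondrial genes, rose by 0.67 ± 0.11 (SE; limma adjusted p = 0.0138). The 7 lean rats had a signal of 1977 ± 185 (SD, n = 7) and the 6 obese rats one of 3204 ± 493 (SD, n = 6), and the groups did not overlap without the pair. With all 15 arrays Nudt7 had 0.57, Pdk4 0.88, Plin2 1.02 and Fabp3 2.17, with limma adjusted p of 0.0948 to 0.103. With 13 arrays the call of Plin2 was lost without obese rat 8 (limma adjusted p = 0.0513), and those of Plin2 and Pdk4 with no filter on low signals (both limma adjusted p = 0.0526). With the Gapdh ratio as a covariate the log2 fold changes were 0.63 for Nudt7, 1.13 for Pdk4, 1.01 for Plin2 and 1.79 for Fabp3, with limma adjusted p of 0.0686 to 0.117, so that none of the 4 passed. With the mean over its probe sets Pdk4 had 0.60 (limma adjusted p = 0.0583).

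The other lists held 1 call. In the list of other mitochondrial genes 1 of 16 passed, Nudt7, with a median log2 fold change of -0.01, and Hsd17b10 had 0.37 (limma adjusted p = 0.216). Other peroxisomal genes had a median of 0.04 with 0 of 16 past the threshold; the thioesterase Acot8 had 0.31 and the racemase Amacr 0.29 (limma adjusted p = 0.211 and 0.224). Peroxins, which build peroxisomes, had -0.03 and 0 of 10, with Pex14 at -0.28 and Pex26 at 0.54 (limma adjusted p = 0.145 and 0.237).

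Genes that control entry or transcription had a median of -0.05 with 0 of 14 past the threshold. Prkaa1, the catalytic subunit of AMP-activated kinase, had -0.36 ± 0.09 (SE; limma adjusted p = 0.0766), and the receptor Ppard -0.28 ± 0.15 (SE; limma adjusted p = 0.325). The ketone and propionyl routes had 0.03 and 0 of 7, with the carboxylase subunit Pcca at -0.31 and Mcee at 0.14 (limma adjusted p = 0.114 and 0.543). Genes that follow mitochondrial content had 0.09 and 0 of 14; the outer membrane channels Vdac1 and Vdac2 had 0.42 ± 0.10 and 0.28 ± 0.10 (SE; limma adjusted p = 0.0624 and 0.179). These values are from the 13 arrays. With 15 arrays 0 genes of these lists passed limma, and the list medians lay between -0.05 and 0.08. Apart from Nudt7, given above, the genes named from these lists then had -0.32 (Prkaa1) to 0.49 (Pex26) with limma adjusted p of 0.113 to 0.596.

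**Figure D5:**
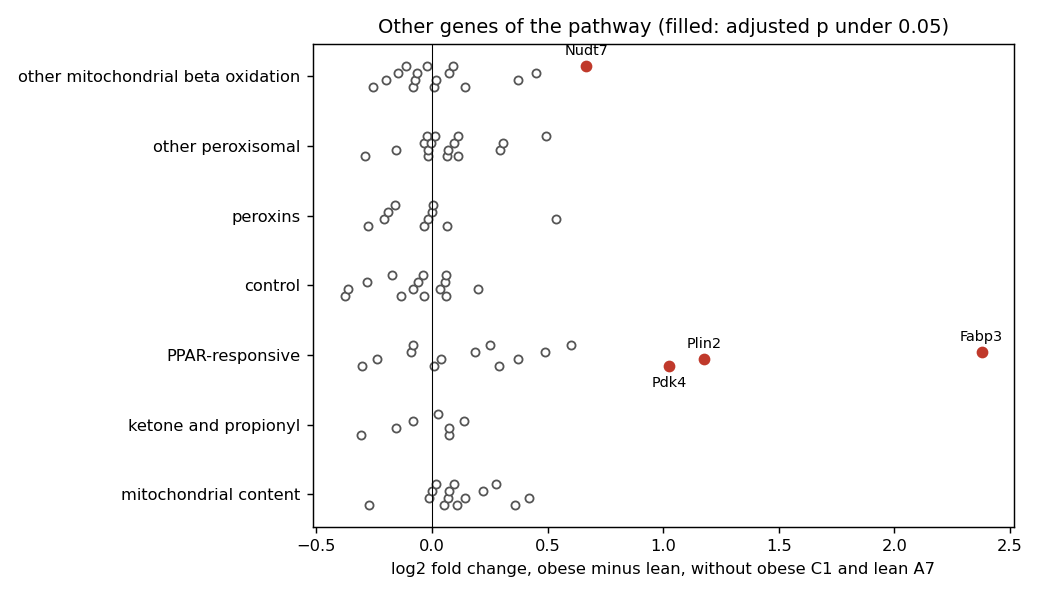
Log2 fold change, obese minus lean, without obese C1 and lean A7 (horizontal axis) of 88 other genes of the pathway, grouped by list (vertical axis; a gene on several lists appears in each, and height within a list has no meaning); filled red points passed an adjusted p of 0.05. Fabp3, Plin2, Pdk4 and Nudt7 are the 4 filled points, and the open points lie on both sides of 0.

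Other cell types and RNA quality were read from markers on the same arrays, with exact two-sided permutation tests over rats adjusted over 10 measures. The summed signal of 8 measured fat cell markers was 302695 to 591095 in obese and 337923 to 466374 in lean rats, and that of 13 macrophage markers 149035 to 388739 and 115801 to 171547. On the log2 scale the fat cell sum differed by -0.04 with 15 arrays and -0.05 with 13 (adjusted permutation p = 0.867 and 0.826). Of the 8 markers 4 had fold changes above 0 and 4 below, in both sets. Lep alone had an unadjusted p under 0.05, at 0.68 with 15 arrays and 0.79 with 13 (limma adjusted p = 0.115 and 0.0646). Its mean signal over all rats, 4276 in obese and 2631 in lean rats, adds little to that sum. The macrophage sum was higher in obese rats by 0.69 with 15 arrays (adjusted permutation p = 0.0140) and by 0.80 with 13 (adjusted permutation p = 0.00583). With 13 arrays 6 of the 13 markers passed limma, against 0.725% of all probe sets in that direction. With 15 arrays 0 passed and 9 had an unadjusted p under 0.05, against 6.74%. All 13 had fold changes above 0. The smallest were Cd14, 0.11 with 15 arrays and 0.13 with 13, and Adgre1, 0.20 and 0.24 (limma adjusted p = 0.614 to 0.707). All 13 lay above the filter. With 13 arrays those that passed were Cd68, Gpnmb, Lgals3, Laptm5, Tyrobp and Fcer1g. Lyz2, Csf1r, Cd163, Mrc1, Itgam, Adgre1 and Cd14 did not (limma adjusted p = 0.110 to 0.635). The macrophage sum mostly follows Lyz2, Lgals3 and Gpnmb, whose mean signals over all obese rats were 63111, 46523 and 39671. Each other marker of that list averaged 18836 or less in the obese group. The part of macrophages in the values of the fatty acid oxidation members was not tested.

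The summed brown fat markers were higher by 0.40 with 15 arrays and 0.48 with 13 (adjusted permutation p = 0.0140 and 0.00583). That sum mostly follows Cidea, whose mean signal over all rats was 17568 in the obese and 12119 in the lean group. Each other marker of the list averaged 1035 or less in either group. The median log2 fold change of the 3 of 6 above the filter was -0.24 with 15 arrays and -0.33 with 13. Zic1 had -0.24 and -0.33, and Ppargc1a -0.34 and -0.38 (limma adjusted p = 0.336 to 0.511). Cidea, a lipid droplet protein that white fat also makes, had 0.51 ± 0.12 with 15 arrays and 0.60 ± 0.11 with 13 (SE; limma adjusted p = 0.103 and 0.0203), and the defining markers Ucp1, Dio2 and Cox8b lay below the filter. Of 9 skeletal muscle markers 6 lay below the filter, Acta1 and Mb among them. Above it lay Ckm, Tnnt3 and Myh1, whose mean signal was 13661 in obese and 15138.5 in lean rats. With 15 arrays Myh1 had -0.14, Ckm 0.03 and Tnnt3 -0.06 (limma adjusted p = 0.480 to 0.954). With 13 they had -0.16, -0.008 and -0.03 (limma adjusted p = 0.435 to 0.989). The summed muscle markers differed by -0.13 with 15 arrays and -0.15 with 13 (adjusted permutation p = 0.184 and 0.157). RNA quality was read from control probes at both ends of the Gapdh transcript, whose log2 3 prime to 5 prime ratio is higher in degraded RNA. The ratio averaged 1.05 ± 0.26 over the 8 lean (SD, n = 8) and 0.77 ± 0.28 over the 7 obese rats (SD, n = 7, exact permutation p = 0.0737, adjusted p = 0.184). Without the pair it averaged 1.05 ± 0.28 in lean (SD, n = 7) and 0.72 ± 0.28 in obese rats (SD, n = 6, exact permutation p = 0.0594, adjusted p = 0.157). With that ratio as a covariate 0 members passed limma in either set, and Acaa2 had 0.44 with 15 arrays and 0.55 with 13.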

How the data were processed

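Epididymal fat of 15 rats, 7 obese and 8 lean by their titles, was measured on 1 Affymetrix RAE230_2 array each. The deposited intensity values are MAS5 signals, per the submitters' processing notes; the version and settings are not given in the sources used here. The labels and the design text differ on the RNA input and the extraction reagent. Their 2% trimmed means lay between 1500.3 and 1500.4 on the 15 arrays, so no scaling was added. Mismatch subtraction in MAS5 leaves low signals noisy.

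Of 31099 probe sets 57 controls were left out, and those with a mean log2(signal + 79.9) above the 40th percentile were kept (79.9 being the 10th percentile of signals). On that scale fold changes of dim genes are understated. The comparison of groups used lmFit and eBayes of limma 3.58.1, under R 4.3.3, a step also run on simulated arrays with independent noise. Permutation tests used scipy 1.17.1 and figures matplotlib 3.10.9 in Python 3.11.15. By the platform annotation 20826 probe sets name 1 gene, 436 several genes and 9780 no gene.

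The members, lists and rules were chosen with earlier results of these data known. The text names all members, and of the other lists those past the threshold and the 2 with the smallest p among the 13 arrays. The fat cell, macrophage, brown fat and muscle markers singled out were chosen after their values were seen. A title's number names another rat in each group, so no pairs were made. Alternatives were other pseudocounts (1 and 291.2), other filters, quantile normalization, median centring, the rat number as a block, the Gapdh ratio as a covariate, the mean over probe sets, trend and robust in eBayes, and each rat left out.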

Additional observations from a re-analysis of the deposited data

Results flagged for a closer look

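Of 58 groups of member signals examined, 7 obese or 8 lean rats each, 3 held a rat far from the others by Dixon's gap criterion, which chance meets in about 1 of 20 groups. Ech1 was lowest in lean rat 1, at 10518.7, while the other lean rats lay between 13925.4 and 17323.5. Ppara reached 105.3 in obese rat 3, where the next obese rats spanned 40.7 to 60.1, and 150.7 in lean rat 6, where the next lean rats spanned 38.9 to 74.6. Ppara lay below the filter on low signals in both groups.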

How the results depend on the processing

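Direction was the same as reported in 630 of 650 values of the tested members under the alternatives with 15 arrays and in 576 of 598 with 13, and 20 of 26 members never turned in either set. The number of rats limits what can be called, and low MAS5 signals limit Ehhadh, Acot1 and Ppara.

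With 13 arrays the count of mitochondrial members past the threshold, 1 as reported, was 0 with a pseudocount of 1, no filter, quantile normalization, the rat number as a replicate block, the Gapdh ratio as a covariate or the mean over probe sets, 2 with the larger pseudocount, 4 with trend and robust, and 5 with the filter at the 60th percentile or median centring. Leaving out 1 more rat gave 0 to 1. With 15 arrays it was 0 under each of these settings and 0 to 3 with 1 rat left out, the 3 without obese rat 1. Same-numbered rats share only a number: their deviations from the group means correlated at -0.11 to 0.24, and 3 of 14 rats were closest to their own number, so the replicate block stands only as an alternative. No peroxisomal member passed under any of these alternatives in either set.

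The mitochondrial median became 0.26 with 15 arrays under median centring, and with 13 arrays 0.31 under median centring and 0.14 under quantile normalization. The peroxisomal median with 13 arrays became 0.19 under median centring, and under quantile normalization it was -0.0057 with 15 arrays and -0.021 with 13. The cause of these shifts was not tested.

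Over all probe sets the count past the threshold, 0 with 15 arrays, was 3 with no filter, 8 with trend and robust, 49 with the filter at the 60th percentile and 0 to 245 with 1 rat left out, 245 without obese rat 1 and 1 without lean rat 7. With 13 arrays, where it was 189, it was 3 with the rat number as a replicate block, 14 with the Gapdh ratio, 46 with no filter, 123 with a pseudocount of 1, 124 with quantile normalization, 309 with trend and robust, 334 with the filter at the 60th percentile, 389 with median centring and 51 to 262 with 1 more rat left out.

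Members whose direction turned had fold changes near 0. With 15 arrays Hadh became 0.055 under median centring and 0.023 with the Gapdh ratio, Eci1 0.014 and 0.017, Abcd3 0.051 under median centring, Scp2 -0.039 under quantile normalization and Ucp3 -0.0069 with the mean over probe sets. With 13 arrays Hadh became 0.075 and 0.070, Eci1 0.012 and 0.0064, Abcd3 0.054, Scp2 -0.053 under quantile normalization and -0.012 with the replicate block, Acads -0.033 with that block, and Ucp3 -0.018 with the Gapdh ratio and -0.020 with the mean over probe sets. With 1 rat left out, Acads ran from -0.054 to 0.10 with 15 arrays and from -0.081 to 0.10 with 13, Ucp3 from -0.037 to 0.066 and from -0.040 to 0.066, and Abcd3 from -0.13 to 0.035 and from -0.17 to 0.042.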
